A study of Mus musculus with 3 samples.

Results

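The genes described here are 37 components of the Notch signalling pathway, chosen by name: 4 receptors, 5 ligands, 14 modifiers of receptors and signal, 5 nuclear factors and 9 genes of the Hes and Hey families, which are classical Notch targets. The measurement was where the transcription factor Isl1 sat on chromatin at and around these genes. Isl1, a LIM-homeodomain protein, marks cardiac progenitors of the second heart field. Of the 37 genes, 29 had at least 1 Isl1 peak assigned to them, and together they held 41 of the 14082 distinct peaks.

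Chromatin immunoprecipitation followed by sequencing (ChIP-Seq) was done on cardiac progenitor cells (CPCs) that were differentiated from E14 Tg(Nkx2–5-EmGFP) mouse embryonic stem (ES) cells and collected at day 5. E14 Tg(Nkx2–5-EmGFP) is 1 ES cell line in which a green fluorescent protein reports the early cardiac gene Nkx2-5, and it is the source of all 3 samples, which were 2 Isl1 ChIP replicates and 1 input, chromatin set aside before the antibody was added. The cells received LIF and BMP4, then Activin A, VEGF and BMP4, and then ascorbic acid, VEGF, bFGF and FGF10. The peaks of both replicates came as 1 combined list with position, gene and distance to the transcription start site (TSS), without height, score or read number, so sequencing depth is unknown, no replicate error can be given, and intervals cover counting error only. Because the chromatin came from a population of cells, binding in few cells and weak binding in many cannot be told apart. The list holds no expression values, so the identity of the cells was not checked here.

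Notch receptors are single-pass membrane proteins that bind Delta-like and Jagged ligands on a neighbouring cell. Ligand binding exposes the receptor to an Adam metalloprotease and then to gamma-secretase, and the freed intracellular domain enters the nucleus, where it joins the DNA-binding protein Rbpj and a Mastermind-like coactivator to switch on genes such as those of the Hes and Hey families. In the developing heart the pathway is known for its part in endocardial cushion formation, trabeculation and outflow tract growth.

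Sequences under peaks that the results turn on are shown first, 5′ to 3′ on the strand of the assigned gene, from mm9 (NCBI m37). CpG pairs are in capitals. The first 2 are the centres of the peaks just upstream of Hes1 and Jag1, at chr16:30063983-30064142 (plus strand) and chr2:136942899-136943058 (minus strand). Both are CpG-dense, and neither peak reaches its assigned TSS. The next 4 hold repeated sequence. They are the centres of the Dll4 peak (chr2:119145011-119145170, plus strand), the distant Jag1 peak (chr2:137195381-137195540, minus strand), the distant Hes5 peak (chr4:154321038-154321197, plus strand) and the Maml2 peak (chr9:13473881-13474040, plus strand). All 6 lie outside annotated exons: the Maml2 sequence is intronic and the other 5 are intergenic.
Hes1 upstream peak: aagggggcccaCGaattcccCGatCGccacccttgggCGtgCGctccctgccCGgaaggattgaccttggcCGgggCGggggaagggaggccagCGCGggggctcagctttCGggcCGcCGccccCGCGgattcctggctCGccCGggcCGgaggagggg
Jag1 upstream peak: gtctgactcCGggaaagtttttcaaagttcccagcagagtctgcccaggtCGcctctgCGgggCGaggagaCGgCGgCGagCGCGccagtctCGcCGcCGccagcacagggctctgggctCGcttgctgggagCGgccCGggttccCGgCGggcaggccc
Dll4 peak: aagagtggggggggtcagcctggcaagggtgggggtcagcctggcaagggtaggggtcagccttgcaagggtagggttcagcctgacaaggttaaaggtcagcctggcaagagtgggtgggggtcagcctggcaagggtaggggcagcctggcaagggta
Jag1 distant peak: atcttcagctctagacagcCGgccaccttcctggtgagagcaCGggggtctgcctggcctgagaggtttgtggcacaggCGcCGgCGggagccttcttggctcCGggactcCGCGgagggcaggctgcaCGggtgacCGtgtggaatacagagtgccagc
Hes5 distant peak: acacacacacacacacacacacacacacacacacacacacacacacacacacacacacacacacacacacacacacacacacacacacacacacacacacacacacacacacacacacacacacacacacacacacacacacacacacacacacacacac
Maml2 intron peak: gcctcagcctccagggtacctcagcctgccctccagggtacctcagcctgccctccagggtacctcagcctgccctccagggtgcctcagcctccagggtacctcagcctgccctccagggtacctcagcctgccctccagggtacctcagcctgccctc

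The Hes1 centre held 18 CpG pairs in 160 bases and the Jag1 centre 17, with GC contents of 75.6% and 71.3%. The Dll4 and Maml2 centres held 0 CpG pairs and repeat a short unit in tandem, and the distant Hes5 centre is a run of CA dinucleotides. The distant Jag1 centre held 10 CpG pairs and no tandem unit, but its sequence recurs elsewhere in the genome.

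A second set shows that the same sequence can lie under peaks assigned to different members. The peaks 1272 bp upstream of Dtx4 and 212501 bp upstream of Hey2 share an identical stretch of 253 bp, of which the first 80 bp are in capitals after 20 bp of flank. Both are shown on the plus strand of the reference, at chr19:12577771-12577870 for Dtx4 and chr10:30775328-30775427 for Hey2, and both are intergenic.
Dtx4 upstream peak: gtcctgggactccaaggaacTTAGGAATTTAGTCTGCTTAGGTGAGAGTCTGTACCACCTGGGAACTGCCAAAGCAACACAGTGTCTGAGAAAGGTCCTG
Hey2 distant peak: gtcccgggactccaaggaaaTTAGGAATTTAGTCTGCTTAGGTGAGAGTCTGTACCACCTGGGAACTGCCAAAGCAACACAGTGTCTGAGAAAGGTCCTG

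The third set marks, in capitals, the string GTGGGAA, the core that Rbpj recognises, or its reverse complement TTCCCAC, within 60 bp windows on the strand of the gene. The windows shown are clear of annotated UTRs and come from Dll1, Lfng, Rbpj, Hes5, Hes6 and Heyl, so that a ligand, a modifier, a nuclear factor and Hes or Hey genes are each represented. Their positions are chr17:15511530-15511589 (Dll1, minus strand), chr5:141083160-141083219 (Lfng, plus strand), chr5:53980536-53980595 (Rbpj, plus strand), chr4:154334780-154334839 and chr4:154334923-154334982 (Hes5, plus strand), chr1:93309046-93309105 and chr1:93309533-93309592 (Hes6, minus strand) and chr4:122916858-122916917 (Heyl, plus strand).
Dll1 downstream peak: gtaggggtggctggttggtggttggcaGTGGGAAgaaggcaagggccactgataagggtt
Lfng promoter peak: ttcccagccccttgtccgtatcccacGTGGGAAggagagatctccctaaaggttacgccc
Rbpj upstream peak: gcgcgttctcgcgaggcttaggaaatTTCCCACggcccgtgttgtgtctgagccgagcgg
Hes5 promoter peak, upstream copy: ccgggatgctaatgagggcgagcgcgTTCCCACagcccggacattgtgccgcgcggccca
Hes5 promoter peak, copy next to the TSS: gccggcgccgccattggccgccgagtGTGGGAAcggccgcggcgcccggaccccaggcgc
Hes6 peak, downstream copy: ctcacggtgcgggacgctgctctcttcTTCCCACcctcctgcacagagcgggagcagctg
Hes6 peak, copy nearer the TSS: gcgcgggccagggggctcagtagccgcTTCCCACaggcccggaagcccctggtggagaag
Heyl peak: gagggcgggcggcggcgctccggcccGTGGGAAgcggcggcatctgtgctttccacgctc

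The first question was how many pathway genes carried Isl1. An assigned peak was present at 29 of 37 genes, or 78.4% (95% Wilson interval 62.8 to 88.6), where 37.5% of all 21896 protein-coding genes had one. A peak whose midpoint lay within 1 kb of the TSS was present at 20 genes (54.1%, 38.4 to 69.0), against 23.2% of protein-coding genes. At least 2 peaks were assigned to 10 genes (27%, 15.4 to 43.0), against 10.6%. Between the pathway genes and all genes these shares were not tested, because the members were chosen with results of these data known. Lists of other pathways gave shares close to those of Notch. Of 50 Wnt pathway genes 39 had an assigned peak (78.0%) and 28 had one within 1 kb (56.0%), and of 21 Hedgehog pathway genes the counts were 16 (76.2%) and 12 (57.1%).

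The base composition of promoters was next set beside the peaks. Each gene was judged only at the annotated TSS whose surrounding 1000 bp had the highest observed to expected CpG ratio. Its promoter was called CpG-rich where that ratio was above 0.6 and the GC content above 50%. By this rule 24 of the 37 genes had a CpG-rich promoter (64.9%, 48.8 to 78.2), against 48.1% of protein-coding genes. When peaks were placed on the reference annotation rather than by the deposited gene names, a midpoint lay within 1 kb of a TSS at 21 of 37 genes, against 26% of all annotated protein-coding genes. Among the 24 genes with a CpG-rich promoter the count was 19, against 49.9% of such genes at large. Among the other 13 it was 2, Notch3 and Dtx3, against 3.98%. Hes1 was also placed among these 13, as the GC content at the TSS judged was 45.7%, with a CpG ratio of 0.671. The part of promoter composition in the difference between pathway genes and all genes was not tested.

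**Figure D1:**
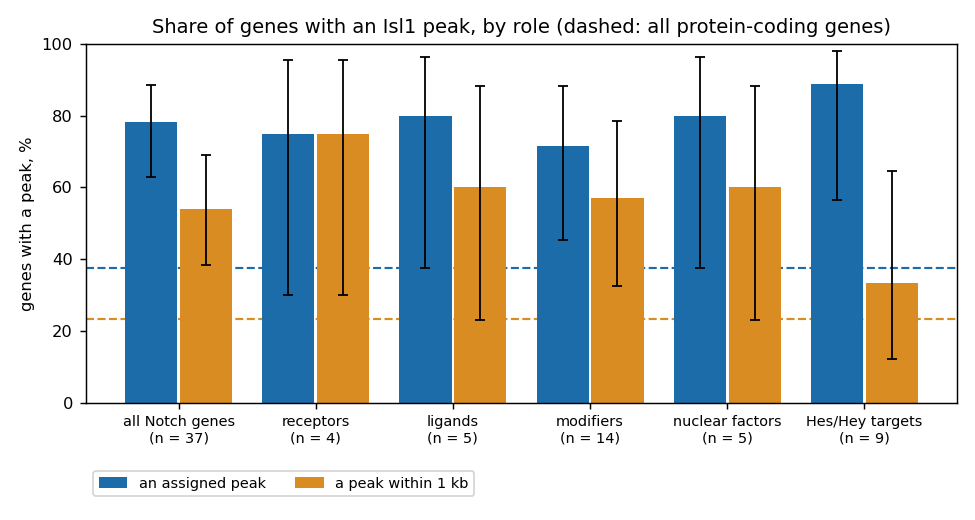
The vertical axis gives the percent of genes with an assigned Isl1 peak at any distance (blue) or within 1 kb of the TSS (orange) for all 37 Notch genes and for each role; bars start at 0, whiskers are 95% Wilson intervals, and dashed lines are the shares of all protein-coding genes, 37.5% and 23.2%. The Hes/Hey genes have the highest share at any distance (8 of 9) and the lowest within 1 kb (3 of 9), with wide intervals in every role.

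The roles had a peak at similar shares of their genes, and the peaks lay at different distances from the TSS. A peak was assigned to 3 of 4 receptors, 4 of 5 ligands, 10 of 14 modifiers, 4 of 5 nuclear factors and 8 of 9 Hes and Hey genes. Within 1 kb of the TSS the counts were 3, 3, 8, 3 and 3. The median distance from peak midpoint to TSS, without regard to side, was 148 bp over the 4 receptor peaks, 792 bp over 6 ligand peaks, 334 bp over 13 modifier peaks, 979 bp over 7 nuclear factor peaks and 5115 bp over 11 Hes and Hey peaks. These groups are small, their Wilson intervals overlap, and no difference between roles was tested. The 1 kb limit cut through no cluster of values: the peak just inside it lay at 979 bp, upstream of Rbpj, and the one just outside at 1272 bp, upstream of Dtx4.

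**Figure D2:**
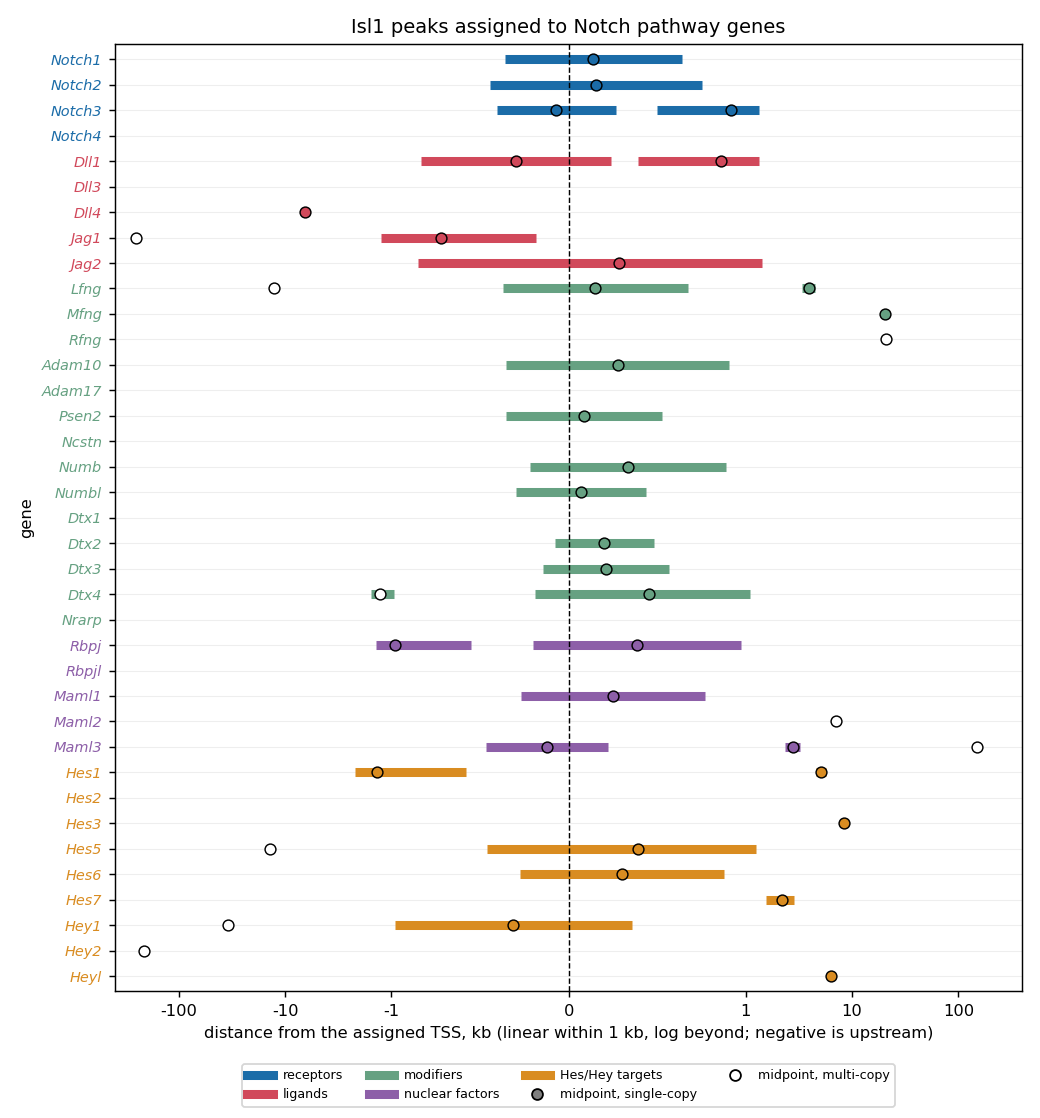
Each row is 1 of the 37 genes, coloured by role; bars span the peaks and circles their midpoints along the distance from the assigned TSS in kb, linear within 1 kb and logarithmic beyond, with negative values upstream. Filled circles are single-copy and open circles multi-copy sequence; most bars cluster on the TSS, and all 8 peaks beyond 10 kb except that of Mfng are open.

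Of the receptors, Notch1, Notch2 and Notch3 each had a peak across the TSS, and Notch4 had no assigned peak. The Notch1 peak (chr2:26358703-26359703) had its midpoint 139 bp downstream of the TSS and the Notch2 peak (chr3:97817020-97818216) 157 bp downstream, both with the midpoint in an annotated UTR. Notch3 had 2 peaks, at -69 and 914 bp, with 231 bp between them and the second in an intron. A pair of peaks within 1 kb of the same TSS was found at 3 of 37 genes (8.11%, 2.80 to 21.3), against 0.557% of protein-coding genes. Dll1 and Rbpj were the others. By the reference annotation the second Dll1 peak lay 1015 bp from the TSS, just outside that limit. Since the list joins areas common to both replicates, whether such a pair is a single broad occupancy cut in 2 or separate sites cannot be told apart. Inside the body of Notch1, 2 further peaks lay in coding exons, 32634 and 38310 bp downstream of the closest annotated TSS, and the list assigned both to the microRNA gene Mir6996.

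Notch4, a receptor of endothelial cells, was not free of Isl1. A peak of 1163 bp lay in its coding sequence, 23219 bp downstream of its TSS (chr17:34723851-34725014), and was assigned to the neighbouring gene Gpsm3, 2319 bp upstream of the TSS of that gene. Counted by overlap with the gene body or a distance of at most 10 kb from a TSS, in place of the deposited gene names, all 4 receptors held a peak, as did 29 of the 37 genes, against 37.9% of annotated protein-coding genes.

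Of the ligands, Dll1 had the closest pair of peaks. Their midpoints were at -296 and 862 bp and only 153 bp separated them (chr17:15512546-15513621 and chr17:15511458-15512393). Jag2 had the widest peak of all members, 2270 bp across its TSS, with the midpoint at 284 bp, in a coding exon. Of all peaks in the list, 3.09% were wider than 2000 bp. A second peak in an intron of Jag2, 15926 bp downstream of its TSS, was assigned to the microRNA gene Mir6941.

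Jag1, the ligand mutated in Alagille syndrome, was the only 1 of the 20 genes with a peak within 1 kb whose peak did not reach the TSS. That peak spanned 1072 bp with its midpoint 722 bp upstream (chr2:136942442-136943514) and ended 186 bp before the TSS. The second Jag1 peak was 253204 bp upstream, at multi-copy sequence. Dll4, the ligand of arterial endothelium and endocardium, had 1 peak, 6430 bp upstream, whose centre is the tandem repeat printed above. Dll3, which unlike the other ligands does not activate receptors on neighbouring cells, had no assigned peak, but a peak of 1049 bp lay in its coding sequence, 7032 bp downstream of its TSS, and was assigned to Selenov.

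The modifiers act on receptors and ligands before and after binding. The 3 Fringe genes encode glycosyltransferases that change which ligands a receptor responds to, and each had a peak, but at different places. Lunatic fringe (Lfng) had 3 peaks, at -12800, 149 and 3932 bp, and so matched Maml3 as the member with most peaks. Manic fringe (Mfng) had 1 peak, 20261 bp downstream of its TSS. Radical fringe (Rfng) was assigned a peak at 21014 bp whose sequence occurs at a median of 2 places in the genome.

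A different peak covered the Rfng promoter. It was 1571 bp wide (chr11:120644872-120646443), its midpoint was 136 bp upstream of the annotated Rfng TSS, and the list assigned it to Gps1, whose TSS lies 71 bp before that midpoint. Peaks between genes that start close together are counted for 1 of them only, so the assigned peak of Rfng and the peak at its promoter were not the same.

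Adam10, the metalloprotease that makes the first cut of the receptor, had a peak at 276 bp, and Psen2, a catalytic subunit of gamma-secretase, had one at 88 bp. Adam17 and Ncstn, which belong to the same 2 proteolytic steps, had no assigned peak, and the closest peaks to their TSSs were 43.7 and 55.7 kb away and assigned to Ywhaq and Vangl2. Both Adam17 and Ncstn have CpG-rich promoters by the rule used here. Numb and Numbl, whose proteins hold back Notch signalling in one daughter of a dividing cell, had peaks at 334 and 71 bp.

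Of the Deltex genes, which encode ubiquitin ligases that steer receptor trafficking, Dtx2, Dtx3 and Dtx4 had peaks at 202, 211 and 452 bp. Dtx4 had a second peak 1272 bp upstream, at multi-copy sequence. Dtx1 had no assigned peak and its closest peak, assigned to Rasal1, was 62.8 kb away. Nrarp, a feedback inhibitor that Notch itself induces, was farthest from any peak of the 37 genes, with the closest 74.7 kb from its TSS and assigned to Tmem203. A further peak, assigned to Arhgef25, lay 5531 bp downstream of the Dtx3 TSS.

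Of the nuclear factors, Rbpj, the DNA-binding protein of the pathway, had 2 peaks near its TSS. They were at -979 and 387 bp with 493 bp between them (chr5:53980180-53981032 and chr5:53981525-53982700), and both midpoints were intronic in the annotation, which holds an Rbpj transcript starting farther upstream. The centre of the second had a GC content of 89%, the highest of the 41 peaks. Rbpjl, the relative of Rbpj known from the exocrine pancreas, had no assigned peak, and the closest one was 40.2 kb away and assigned to Slpi.

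All 3 Mastermind-like coactivator genes had peaks. Maml1 had 1 at 251 bp. Maml3 had peaks at -121, 2788 and 148067 bp, of which the last was the narrowest of the members at 443 bp and lay in an intron at multi-copy sequence. Maml2 had a single peak, in an intron, over the tandem repeat printed above. Its deposited distance was 7056 bp, but it lay 47.9 kb from the Maml2 TSS of the annotation used here, which would place it beyond 10 kb. An additional peak in an intron of Maml3, at sequence with a median of 10 copies, was assigned to Mgst2.

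The Hes and Hey genes encode basic helix-loop-helix repressors, and 8 of 9 had an assigned peak, but at 5 of these 8 it lay more than 1 kb away. Only Hes5, Hes6 and Hey1 had a peak across the TSS. Their midpoints were at 389, 302 and -313 bp, and the peaks were 1694, 1148 and 1336 bp wide (chr4:154334574-154336268, chr1:93308923-93310071 and chr3:8666683-8668019). Hes5 and Hes6 are best known from neural progenitors, and Hey1 from the atria, endocardium and arteries.

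Hes1, the Notch target expressed most widely, had an upstream and a downstream peak and none over its assigned TSS. The upstream peak (chr16:30063259-30064865) was 1606 bp wide, with its midpoint 1381 bp upstream, and ended 578 bp before the assigned TSS. It covered the start of a further upstream Hes1 transcript in the annotation, one without a coding sequence, and reached 395 bp past it. The downstream peak (chr16:30070006-30071111) had its midpoint at 5115 bp, beyond the 3′ end of the gene, and a GC content of 86% at its centre. Both were single-copy sequence.

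Hes7, an oscillator of the somite clock, had a peak in its coding exon at 2203 bp (chr11:68935517-68936799). Heyl, which is expressed in vascular smooth muscle, had one at 6286 bp (chr4:122916715-122917455). The single peak of Hes3, 8408 bp from its assigned TSS, lay in a coding exon of Gpr153, and 2 other peaks within 10 kb of Hes3 were assigned to Gpr153 and Icmt. Hes2 had no assigned peak, and the closest was 19.2 kb away and assigned to Acot7.

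Hey2, which represses atrial genes in the ventricle, had 1 assigned peak, 212501 bp upstream, at sequence with a median of 3042.5 genomic copies. The closest peak to its TSS was 39.8 kb away and assigned to Ncoa7. Its promoter was CpG-rich by the rule used here, so Hey2, Dll4, Adam17, Ncstn and Nrarp were the 5 members with a CpG-rich promoter and no midpoint within 1 kb.

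The next question was how far the distance of a peak went with the kind of sequence under it. A peak was called multi-copy where the 31-mers of its central 200 bp occurred at a median of at least 2 places in the genome on either strand. Reads no longer than the repeated stretch fit several positions, and the read length is not given in the sources used here. By this measure 9 of 41 Notch peaks were multi-copy (22.0%, 12.0 to 36.7), against 6546 of all 14082 peaks (46.5%). The Dll4 peak was not among these 9, as the tandem repeat at its centre had a median of 1 copy. Among the 23 Notch peaks within 1 kb of a TSS the count was 0, against 142 of 5416 such peaks in the list (2.62%). From 1 to 10 kb it was 2 of 10, against 565 of 1473 (38.4%), and beyond 10 kb 7 of 8, against 5839 of 7193 (81.2%). Of the 41 Notch peaks, 23 (56.1%) lay within 1 kb, where 38.5% of all peaks did.

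**Figure D3:**
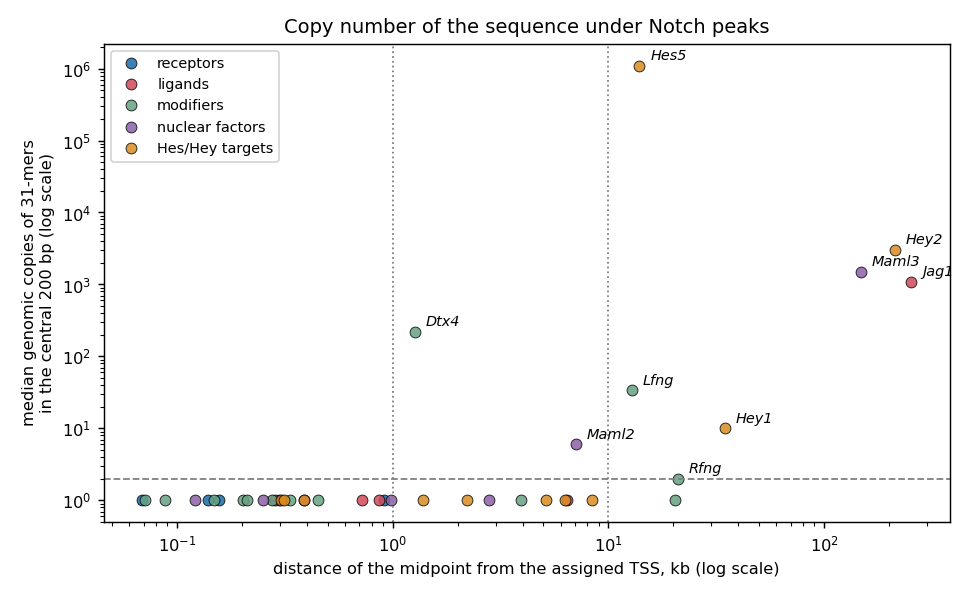
The horizontal axis is the distance of the midpoint from the assigned TSS in kb and the vertical axis the median number of genomic occurrences of the 31-mers in the central 200 bp, both logarithmic; each point is 1 of the 41 peaks, coloured by role, dotted lines mark 1 and 10 kb and the dashed line the multi-copy limit of 2. All 23 points left of 1 kb sit at 1 copy, and the 9 named points reach from 2 copies (Rfng) to over 1000 (Jag1, Maml3, Hey2 and Hes5).

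The copy number of the multi-copy peaks varied widely. It was 2 for Rfng, 6 for Maml2, 10 for the distant Hey1 peak at -34628 bp, 34 for the Lfng peak at -12800 bp and 222 for the upstream Dtx4 peak. It was 1094.5 for the distant Jag1 peak, 1498.5 for the distant Maml3 peak, 3042.5 for Hey2 and 1094330 for the CA run upstream of Hes5. Counted within the peak itself, the median was 6 for Maml2, a tandem repeat in place, and 7 for the distant Hey1 peak. With 75-mers in place of 31-mers the median was at least 2 for 4 of the 9 peaks (the distant Jag1 and Hes5 peaks, the upstream Dtx4 peak and Hey2) and 1 for the other 5.

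Several of these sequences also lay under other peaks of the list. A 31-mer from the centre of the Hey2 peak was shared with the centres of 1560 other peaks, from the upstream Dtx4 peak with 1291, from the distant Maml3 peak with 823, from the distant Jag1 peak with 449 and from the distant Hes5 peak with 326. The distant Hey1 peak shared one with 54 others and the -12800 bp Lfng peak with 53, and those of Maml2 and Rfng with 0. The Dtx4 and Hey2 peaks carry the shared stretch printed above. Which of these copies the antibody pulled down cannot be told apart from positions alone. With multi-copy peaks left out, 26 of 37 genes kept an assigned peak, where 27.6% of protein-coding genes had a single-copy one, and Rfng, Maml2 and Hey2 were those without one.

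The width and composition of the Notch peaks were compared by distance class. The median width was 1038 bp (interval of the median 864 to 1105, range 443 to 2270, n = 41), against 947 bp over all peaks, and it was 1044 against 1050 bp within 1 kb, 1072 against 819 bp from 1 to 10 kb and 824.5 against 882 bp beyond 10 kb. The median GC content of the central 200 bp was 71% (68.5 to 74, range 47 to 89), against 66.5%. Within 1 kb it was 73.5 against 74%, from 1 to 10 kb 68.5 against 65.5%, and beyond 10 kb 64.5 against 63.5%. The Notch median of width stood farthest from that of the list at 1 to 10 kb, where it rests on 10 peaks (interval of the median 740 to 1282 bp). Of the 23 peaks within 1 kb, 17 had their midpoint downstream of the TSS (73.9%, 53.5 to 87.5), against 80.9% of all such peaks.

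**Figure D4:**
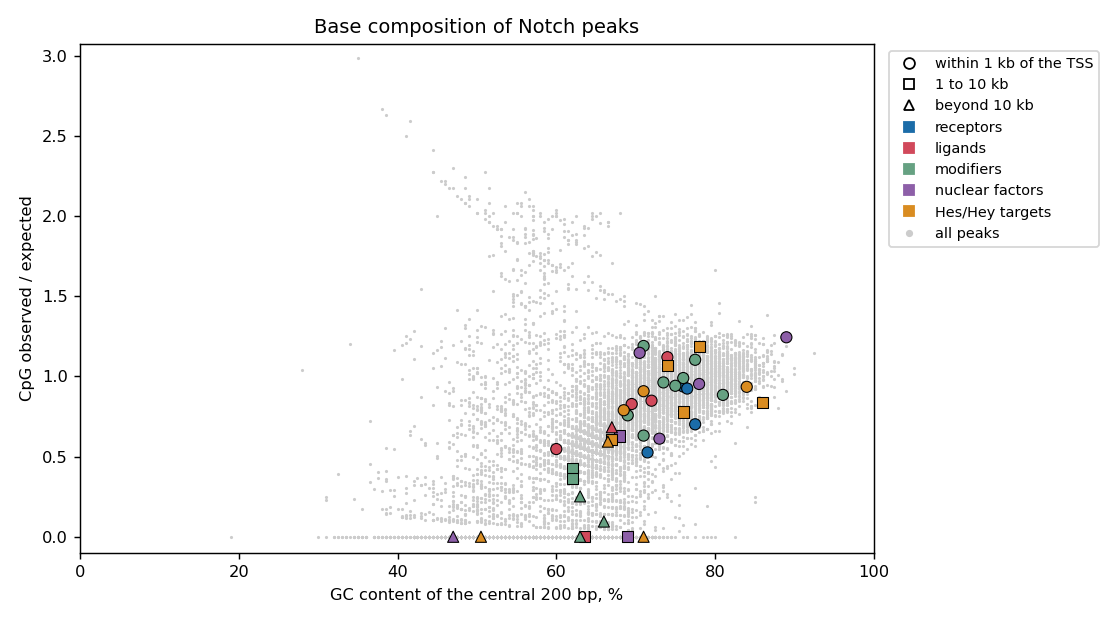
Each coloured symbol is 1 of the 41 Notch peaks, with its GC content in percent and the observed to expected CpG ratio of its central 200 bp; colour gives the role, shape the distance class, and grey dots are all 14082 peaks. Peaks within 1 kb (circles) sit at a GC content of 60 to 89% with CpG present, and the symbols at a ratio of 0 include the Dll4 and Maml2 peaks (squares) and distant peaks such as those of Maml3 and Hes5 (triangles).

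By annotated feature, the midpoints of 14 of the 41 peaks were intergenic (34.1%, against 41.1% of all peaks) and 11 intronic (26.8% against 27.5%). Coding exons held 7 (17.1% against 13.7%), UTRs 5 (12.2% against 16.1%) and noncoding exons 4 (9.76% against 1.73%). These 4 were both peaks of Dll1, the promoter peak of Hes5 and the Heyl peak. The exon under the Dll1 peak at -296 bp belonged to the annotated gene A930024N18Rik, not to Dll1. Counted by overlap with the gene body, 26 of 37 genes held a peak (70.3%), against 32.1% of protein-coding genes. The stretch of genome nearer to a gene's TSS than to any other had a median of 50.5 kb for the 37 genes and 48.1 kb for all protein-coding genes. It ran from 10.4 kb (Dll3) to 693 kb (Jag1).

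Strings of letters known from factors of the pathway were counted on both strands of the whole peak, as a description of the sequence and not as sites. GTGGGAA, of the Rbpj type, occurred in 10 of 41 peaks (24.4%, 13.8 to 39.3), against 11.6% of all peaks, and in 8 of the 23 peaks within 1 kb (34.8%, 18.8 to 55.1), against 17.8%. Its letters in reverse order, AAGGGTG, used as a control, also occurred in 10 of 41 peaks, against 16.9% of all peaks, and within 1 kb in 4 of 23 (17.4%, 6.98 to 37.1), against 13.1%. In the central 200 bp GTGGGAA occurred in 3 of 41 peaks, the upstream Rbpj peak and those of Hes6 and Hey1, against 1.62% of all peaks, and AAGGGTG likewise in 3, against 4.76%.

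The 10 peaks with GTGGGAA belonged to 8 genes. They were both peaks of Dll1 and the promoter and -12800 bp peaks of Lfng. Dtx4, Rbpj, Hes5, Hes6, Hey1 and Heyl had 1 such peak each. So 4 of the 8 were Hes or Hey genes, a group that held 11 of the 41 Notch peaks. None was a receptor, but receptors held only 4 peaks, and none of these held the control AAGGGTG either. The split by role was not tested. The Hes5 peak held 3 occurrences, with first bases at -226, -83 and 809 bp from the TSS, and those of Hes6 and Hey1 held 2 each. In the RefSeq promoter table (GRCm38.p6, from 250 bp before to 50 bp after each start), in which 29 of the 37 genes were matched, 6 held the string (Hes5, Hes7, Hey2, Lfng, Psen2 and Rbpjl), against 7.25% of all genes in the table. Of these 6, only Hes5, Lfng and Psen2 had a peak over the TSS, and Rbpjl had no assigned peak. The Psen2 peak did not itself hold the string.

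CACGTG, an E-box of the kind Hes and Hey proteins bind, was present in 10 of 41 peaks (24.4%), against 18.3% of all peaks. Among these were the upstream Hes1 peak and the promoter peak of Lfng, with 2 occurrences each. The LIM-homeodomain type strings CTAATTG and CTAATGG were present in 4 of 41 (9.76%, 3.86 to 22.5), against 5.00%: the upstream Jag1 peak, the promoter peaks of Lfng and Hes5 and the Rfng peak. None of the 41 held either in the central 200 bp, where 0.412% of all peaks did.

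Other genes of the pathway, 30 in number and not among the 37, were counted as a second list. Of these, 20 had an assigned peak (66.7%, 48.8 to 80.8), where 37.5% of protein-coding genes did, and 19 had one within 1 kb (63.3%), where 23.2% did. All 5 genes of ligand-endocytosing and receptor-directed ubiquitin ligases had a peak within 1 kb (Mib1, Mib2, Neurl1a, Neurl1b and Itch), as had 9 of 12 corepressors (among them Ctbp1, Ctbp2, Hdac2, Ncor1, Spen, Tle1, Tle3 and Tle4) and 3 of 4 coactivators (Crebbp, Kat2a and Kat2b). Of 3 noncanonical ligands, Dlk1 and Dlk2 had one. Neither of the 2 glycosylation genes and none of the 4 further gamma-secretase genes had a peak within 1 kb, and Aph1b alone of these 6 had an assigned peak, 10521 bp upstream at multi-copy sequence. Together with Ncstn, that left Psen2 as the only gamma-secretase gene of either list with a peak at its TSS.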

How the data were processed

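Isl1 ChIP-Seq was measured in 2 ChIP replicates with 1 input, grouped by sample title. The authors aligned reads to mm9 with bowtie2, removed duplicates with Picard 1.136, called peaks with MACS14 without a fragment model, dropped blacklisted peaks, kept areas shared by both replicates with bedtools 2.15 and assigned each peak to the closest TSS with HOMER. The deposited values, in bp, are positions and signed distances to the TSS. Signal tracks and other values were not used here. Starts may count from 0 or 1, so they are uncertain by 1 bp. Identical lines were counted once (14082 of 14165).

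Midpoints were placed on the NCBI m37 assembly (the mm9 sequence, 0 peaks past a chromosome end) with the GENCODE annotation of that assembly. This annotation differs from that of the authors. Protein-coding genes and older names came from a GRCm38.p6 RefSeq table, used for names alone. Copies were counted with numba 0.67.0 over both strands, after a check on simulated sequence, and pysam 0.24.0 read the sequences. Shares carry 95% Wilson intervals and medians order-statistic intervals. No test was run. The genes named are all 37 members, further pathway genes with a peak within 1 kb, genes assigned the peaks at or closest to members, and hosts of member peaks. Aph1b was named after its value was seen. Members, lists and settings were chosen with earlier results of these data known. A few items chosen this way were left out.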

Additional observations from a re-analysis of the deposited data

How the results depend on the processing

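Over 13 results and 78 alternative values, 67 stayed within 1.5 times the reported count, or within the interval of the reported value, and 11 moved. Asking for at least 2 peaks per gene moved the 7 gene counts it was run for, to 10 of 37 genes, 1 receptor, 2 ligands, 2 modifiers, 2 nuclear factors, 3 Hes and Hey genes and 5 of the 30 further pathway genes. The share of multi-copy peaks fell from 22.0 to 6.06% when only peaks within 10 kb were kept and to 9.76% with 75-mers. The median GC content was 66.2% over whole peaks in place of 71% at their centres, and the share with GTGGGAA was 7.32% in the central 200 bp in place of 24.4%. The central window is shorter than the whole peak, and the causes of these shifts were not tested. The number of Notch genes with a peak was between 26 and 29 under every alternative other than the 2-peak rule, and the number with a peak within 1 kb between 19 and 21.

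No paired analysis was possible because the input and the ChIP samples share fewer than 2 replicate numbers and the list combines both ChIP replicates. Leaving out a replicate was not run, for the same reason. Peak heights and read depth are unknown, so a gene without a peak in the list is not shown to be unbound.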
